A study of Mus musculus with 20 samples.

Results

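The major urinary proteins were followed in the liver RNA of 20 mice as 9 genes, namely Mup1, Mup2, Mup3, Mup7, Mup10, Mup11, Mup17, Mup20 and Mup21. They were chosen by their symbols from the 45306 genes of the table, which holds 21 genes with a Mup symbol and a number. All 9 were counted in every mouse and passed the filter on low counts. The family was chosen with earlier results of these data known, so its choice is not independent of them. Control and CE mice were wild-type C57BL/6 mice, and Sirt2-/- and Sirt2-/-/CE mice carried a whole-body deletion of exons 5 to 7 of Sirt2 on the same background, made by injecting a ribonucleoprotein into fertilized eggs. CE stands for chronic cold exposure, in which animals (CE and Sirt2-/-/CE) spent 3 h per day at 4 °C for 3 weeks. Mice were 5 weeks old when they were divided, and each group had 5 mice. By the study's methods, all groups of an experiment were of the same strain and sex. The number of founder lines of the knockout was not given in the sources used here. The mice are named by the numbers of their labels, which run from 1 to 5 in Control, from 6 to 10 in CE, from 11 to 15 in Sirt2-/- and from 16 to 20 in Sirt2-/-/CE. The labels give each library its own number and name no animal. Each library was taken as a separate mouse, so the spread between libraries is read as the spread between animals.

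Major urinary proteins are small secreted lipocalins, barrel-shaped carriers that hold volatile pheromones in a hydrophobic pocket. Hepatocytes of adult male mice make them in very large amounts, and the proteins pass from blood to urine, where they release scent slowly and mark the identity of the owner. Their genes stand side by side on mouse chromosome 4 and are switched on after puberty by pulses of growth hormone, which act through the receptor Ghr, the kinase Jak2 and the transcription factor Stat5b, with thyroid hormone, glucocorticoids and androgens as further inputs. The pulsed pattern of growth hormone in males and the flatter one in females also set the expression of many other liver genes, known as male-biased and female-biased genes.

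In release 21 of the mouse GENCODE annotation, on GRCm38, 22 Mup genes span positions 59956804 to 62150863 of chromosome 4, and the identifiers of the 21 Mup genes of the table were all found there. In the direction of the chromosome the 9 genes lie in the order Mup7 (60066469 to 60070475), Mup2 (60135932 to 60154289), Mup1 (60498012 to 60501960), Mup10 (60578260 to 60582199), Mup11 (60658466 to 60662411), Mup17 (61591929 to 61595871), Mup20 (62050234 to 62054158), Mup3 (62083476 to 62087342) and Mup21 (62147932 to 62150863). All 9 are on the reverse strand. The transcripts compared have 7 exons, except that of Mup21 with 6, and coding sequences of 540 to 552 bases.

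By coding sequence the 9 genes fall into near-identical and divergent members. Mup1, Mup2, Mup7, Mup10, Mup11 and Mup17 share 98.3% to 99.4% of their coding bases in each of their 15 pairs. Mup3, Mup20 and Mup21 differ from those 6 by more, with identities of 82.3% to 91.3%, and the closest pair among them is Mup3 and Mup21 at 94.8%. The stretch of 60 coding bases that differs most among the 9 shows this pattern. It is bases 244 to 303 of the coding sequence of Mup2 and the bases aligned to them in the other members, and capitals mark bases that differ from the most common base of the 9 members at that position.
Mup7: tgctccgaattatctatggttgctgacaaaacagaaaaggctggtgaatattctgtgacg
Mup10: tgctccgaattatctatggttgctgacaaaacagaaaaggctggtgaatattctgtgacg
Mup17: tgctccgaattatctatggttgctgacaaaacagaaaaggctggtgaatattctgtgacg
Mup1: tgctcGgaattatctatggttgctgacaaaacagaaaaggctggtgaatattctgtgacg
Mup2: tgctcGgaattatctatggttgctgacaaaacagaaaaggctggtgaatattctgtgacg
Mup11: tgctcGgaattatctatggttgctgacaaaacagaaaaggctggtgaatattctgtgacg
Mup20: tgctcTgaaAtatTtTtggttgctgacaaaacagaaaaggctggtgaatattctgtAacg
Mup21: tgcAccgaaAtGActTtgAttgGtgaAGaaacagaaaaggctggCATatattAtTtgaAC
Mup3: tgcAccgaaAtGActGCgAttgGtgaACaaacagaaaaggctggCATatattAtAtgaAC
Within this stretch Mup7, Mup10 and Mup17 are the same sequence, and Mup1, Mup2 and Mup11 differ from them at 1 base. Mup20 has 5 bases off the common sequence, Mup21 has 16 and Mup3 has 17.

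This likeness bears on the counts, because a short read from a shared stretch cannot be placed on 1 gene. Of all runs of 100 bases in the transcript of Mup2, only 2.66% occur in no other gene of the annotation, the lowest value among the 9 members. The share was 12.8% for Mup1, 12.9% for Mup7, 14.6% for Mup10, 16.5% for Mup11 and 40.6% for Mup17. It was 61.2% for Mup20, 95.5% for Mup21 and 97.1% for Mup3. How reads that match several genes were counted was not given in the sources used here. Counts of the 6 near-identical members are therefore uncertain as values of single genes, since reads may have been shared among them, among the other Mup genes and among 30 Mup pseudogenes of the table, which held 2669 to 246983 counts per mouse. Counts of Mup3 and Mup21 rest mostly on their own sequence.

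RefSeq, on GRCm38.p6, gave the sequence around the start site for 7 of the 9 genes. Because the members varied together across mice, as given below, the last 150 bases before the start are shown for Mup17, the member with the largest SD within groups, for Mup3, the one with the smallest, and for its closest relative Mup21. Capitals mark TATATAAG, a run of letters that was searched on both strands of the 300-base window because it was seen in these sequences.
Mup17 (window chr4:61595783-61596082, reverse strand): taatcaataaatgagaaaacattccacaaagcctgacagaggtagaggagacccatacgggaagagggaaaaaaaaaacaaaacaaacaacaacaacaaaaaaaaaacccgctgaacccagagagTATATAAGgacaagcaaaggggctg
Mup3 (window chr4:62087268-62087567, reverse strand): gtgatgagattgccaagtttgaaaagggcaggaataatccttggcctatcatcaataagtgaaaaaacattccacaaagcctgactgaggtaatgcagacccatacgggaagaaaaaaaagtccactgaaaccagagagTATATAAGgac
Mup21 (window chr4:62150792-62151091, reverse strand): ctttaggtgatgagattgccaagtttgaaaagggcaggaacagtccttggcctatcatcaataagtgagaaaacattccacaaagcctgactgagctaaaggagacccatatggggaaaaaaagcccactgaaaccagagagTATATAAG
The run TATATAAG occurred in 6 of the 7 windows, all but that of Mup7, and in 1.01% of the 32851 windows of all genes. The window of Mup7 is not aligned with the others. The bases just before its start match those that open the stretch shown for Mup17, far ahead of the run. Whether Mup7 has the run cannot be told from its window. The common form of the TATA box, TATAAA, occurred in 0 of the 7 and in 13.6% of all windows, and the palindrome bound by Stat5, TTCNNNGAA, in 0 of the 7 and in 8.30% of all windows. Over the 300-base windows, Mup3 and Mup21 were 90.2% identical and Mup2 and Mup17 were 96.1% identical, while Mup3 and Mup17 were 63.0% identical. These matches describe the letters only.

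Totals of 35499796 to 53917339 counts per mouse were deposited, and the 9 members together held 110686 to 2955131 counts per mouse, so counting error is small beside the spread between mice, except where 17 counts of Mup1 or 35 counts of Mup17 were found in 1 mouse. Sirt2 itself, the targeted gene, had 40.2 to 56.2 CPM (counts relative to library size, scaled by edgeR's TMM method) in the 10 wild-type mice and 16.9 to 27.5 CPM in the 10 knockout mice, with no overlap. The hepatocyte markers Alb, Apoa1, Ttr, Cps1, Tat and Cyp2e1 summed to 76588 to 169339 CPM. The Y-linked genes Ddx3y, Eif2s3y, Kdm5d and Uty were expressed in all 20 mice and Xist, which marks female cells, had 0 to 15 counts per mouse. In bulk liver, fewer hepatocytes and less RNA per hepatocyte cannot be told apart.

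The first question was how much of the liver transcriptome the family takes up and whether cold or genotype moves it. The share of all counts held by the 9 members was 1.45%, 1.97%, 0.336%, 5.68% and 5.45% in Control mice 1 to 5. In CE mice 6 to 10 it was 3.27%, 4.55%, 3.41%, 3.61% and 1.59%. Sirt2-/- mice 11 to 15 had 1.74%, 3.14%, 2.44%, 1.16% and 1.25%. The Control group therefore held both the highest values of the study and 1 of the lowest, and every other group lay within its range except for mouse 20. Sirt2-/-/CE mice 16 to 20 had 1.29%, 1.62%, 3.07%, 1.83% and 0.260%. The mean share was 3.29% ± 1.07 (SD, n = 5) in CE, 2.98% ± 2.43 in Control, 1.95% ± 0.838 in Sirt2-/- and 1.61% ± 1.01 in Sirt2-/-/CE. Every pair of groups that was compared overlapped.

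**Figure D1:**
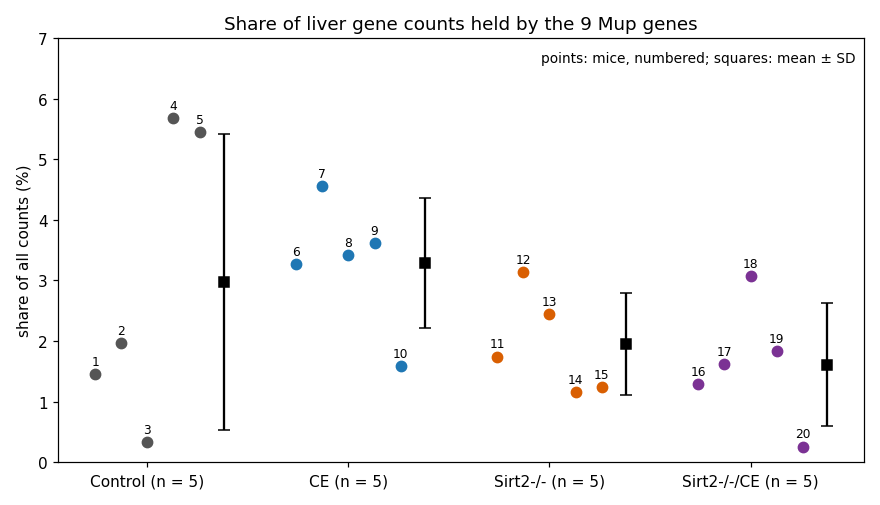
Share of all liver gene counts, in percent, held by the 9 Mup genes together. Points are single mice with their numbers, squares with bars are group means ± SD (n = 5). Control mice run from 0.336% to 5.68%, and mice 3 and 20 lie lowest of all.

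As differences of group means, the family share was 0.310 percentage points higher in CE than in Control and 1.03 points lower in Sirt2-/- than in Control (a difference of -1.03). It was 0.333 points lower in Sirt2-/-/CE than in Sirt2-/- (-0.333) and 1.67 points lower in Sirt2-/-/CE than in CE (-1.67). The SD within groups was 1.48 points, so that 3 of these 4 differences were smaller than the spread between mice and the last was slightly larger. This SD describes single mice and is not the error of a difference between group means, which is smaller. The difference between CE and Control was -0.350 points without Control mouse 3, the opposite sign, and that between Sirt2-/-/CE and Sirt2-/- was 0.0054 points without mouse 20, also of opposite sign. No test was run on the share, because its members were chosen with earlier results of these data known. The plot of the share by mouse shows how far single mice spread around these means.

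Mouse 3 of Control and mouse 20 of Sirt2-/-/CE had the lowest shares of the study, 0.336% and 0.260%, and the other 18 mice ranged from 1.16% to 5.68%. For 8 of the 9 members these 2 mice had the lowest levels of all 20, and for Mup21 the lowest were mice 20 and 15. The same 2 mice had the highest shares of Alb, the gene of serum albumin, with 12.8% and 13.6% of all counts against 6.13% to 10.1% in the other 18. The 2 mice were not alike throughout. Mouse 3 had the highest level of the 20 mice for Lcn2, an acute-phase lipocalin, with 291 CPM, and for the fibrinogen chains Fga, Fgb and Fgg, while mouse 20 had 22.6 CPM of Lcn2 and the other 18 mice at most 143 CPM. Nothing in the labels sets them apart, and values without them, a choice made after seeing the data, stand beside the results below where a direction or a count turned on them.

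Mup3 had the highest median level of the 9 members and Mup21 the lowest. FPKM, which the authors scaled to gene length and depth, allows members to be set side by side. The median over the 20 mice was 7754 FPKM for Mup3, 5103 for Mup7, 4428 for Mup20, 1789 for Mup11, 1008 for Mup10, 904 for Mup17, 520 for Mup2, 269 for Mup1 and 186 for Mup21. Most neighbours in this order traded places in some mice, so the order of the medians did not hold in every mouse. Mup3 was above Mup7 in 13 of 20 mice, among them 5 of 5 Sirt2-/- mice and 1 of 5 CE mice. Mup7 was above Mup20 in 11 of 20 mice, which were 4 of 5 Control, 5 of 5 CE, 0 of 5 Sirt2-/- and 2 of 5 Sirt2-/-/CE mice. Mup20 was above Mup11 in 19 mice and Mup11 was above Mup10 in 20, and these steps were the steadiest of the order. Mup10 exceeded Mup17 in 12 mice and Mup17 exceeded Mup2 in 13, whereas Mup2 exceeded Mup1, and Mup1 exceeded Mup21, in 16 mice. FPKM and counts did not always stand in the same ratio. For Mup11 in CE mouse 7 the ratio corresponded to a gene of 623 bases, against a median of 970 bases over the mice, so that its FPKM there is higher than its counts would give.

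Of the 9 members, Mup3 or Mup7 held the largest share of the Mup counts in all mice but Sirt2-/- mice 12 and 15, where Mup20 did. Mup3 held 11.5% to 77.3% of the counts of all Mup genes (median 25.7%) and Mup7 held 0.307% to 32.3% (median 16.9%). The highest shares of Mup3, 59.5% and 77.3%, were in mice 3 and 20, where the share of Mup7 was 0.307% and 0.673%. Among the other 18 mice Mup3 ranged from 11.5% to 38.6%. Mup20, also known as darcin, a male pheromone protein, held 16.99% to 36.3% of the Mup counts in Sirt2-/- mice, 7.41% to 14.97% in Control, 8.12% to 13.2% in CE and 9.69% to 28.5% in Sirt2-/-/CE mice. Of the 9 member shares, that of Mup20 was the 1 that did not overlap between Sirt2-/- and Control, and 0 of 9 did not overlap in each of the other 3 comparisons. This share was picked once the values were known, was not tested, and depends on all other Mup genes as well as on Mup20. The 9 members held 64.5% to 98.7% of all Mup counts.

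**Figure D2:**
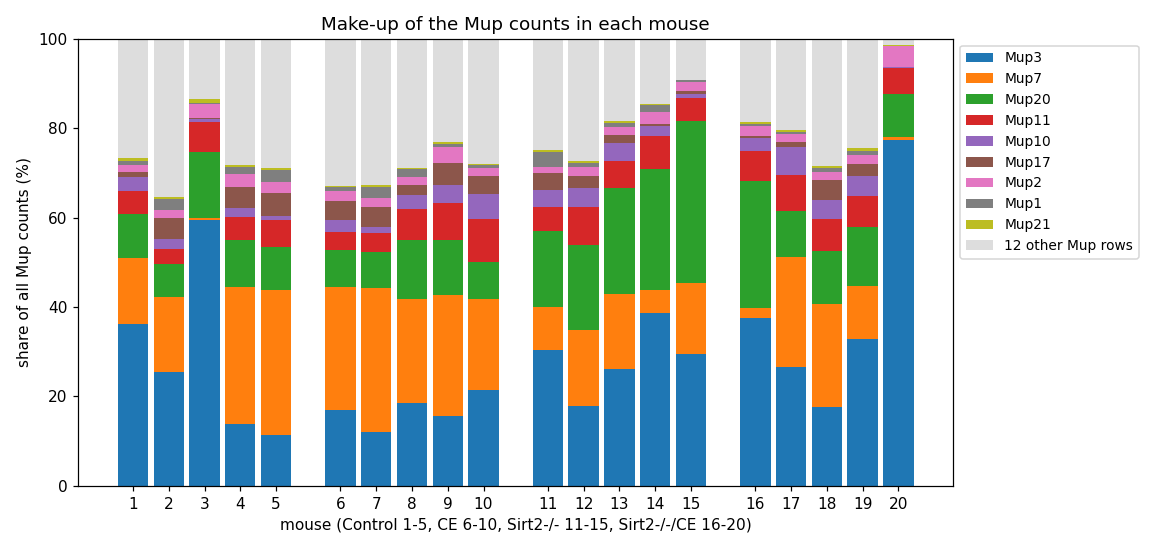
Make-up of the counts of all 21 Mup genes in each of the 20 mice, as stacked percentages that add up to 100%, with mice ordered by group. Mup3 takes 59.5% and 77.3% in mice 3 and 20 and at most 38.6% in the others, and Mup20 takes 16.99% to 36.3% in Sirt2-/- mice 11 to 15.

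The divergent members are described first, because larger parts of their transcripts occur in no other gene. Mup3 had 6771, 7990.4, 2517, 11793 and 9025 CPM in Control mice 1 to 5 and 8335, 8817, 10204, 7286 and 4934 CPM in CE mice 6 to 10. In Sirt2-/- mice 11 to 15 it had 6729.7, 7130.2, 7677, 4969 and 3545 CPM, and in Sirt2-/-/CE mice 16 to 20 it had 6520.2, 5009.9, 7156, 7601 and 2094 CPM. Mup3 was the steadiest member, with a 5.63-fold range over the 20 mice and an SD within groups of 0.65 on the log2 scale. Mup20 had 1847, 2333, 633, 8863 and 7646 CPM in Control and 4104, 5886, 7290, 5671 and 1915 CPM in CE mice. In Sirt2-/- mice it had 3771, 7683, 7005, 3472 and 4354 CPM, and in Sirt2-/-/CE mice 4939.9, 1939, 4780.2, 3048 and 262 CPM. Control mice 4 and 5 were high for Mup20 and the other Control mice low, and all groups overlapped. Mup21, the least abundant member, had 115, 139.8, 37.0, 309.5 and 384 CPM in Control, 185, 248, 188, 156 and 48.5 CPM in CE, 124, 147, 126, 20.3 and 15.7 CPM in Sirt2-/- and 82.3, 72.9, 182, 161 and 8.17 CPM in Sirt2-/-/CE mice. Mice 14 and 15 of Sirt2-/- were low for Mup21 beside their group, as mice 3 and 20 were.

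Among the near-identical members, Mup7 was the most abundant and Mup17 had the largest SD within groups. Mup7 had 2730, 5307, 12.98, 26093 and 25390 CPM in Control and 13436, 23297, 12845, 12587 and 4740.2 CPM in CE mice. In Sirt2-/- mice it had 2133, 6776, 4971, 667 and 1901 CPM, and in Sirt2-/-/CE mice 374, 4593, 9242, 2702 and 18.2 CPM. Its range over the 20 mice was 2011-fold, and it was 69.8-fold over the 18 mice other than 3 and 20. Mup17 had 201, 1471, 2.89, 4046 and 4111 CPM in Control and 2116, 3324, 1305, 2247 and 906 CPM in CE mice. In Sirt2-/- mice it had 851, 1075, 535, 74.5 and 82.5 CPM, and in Sirt2-/-/CE mice 63.5, 233, 1807, 638 and 0.846 CPM. The range of Mup17 was 4860-fold over all mice and 64.7-fold over the 18, and its SD within groups was 3.22 on the log2 scale. Mup1 had the widest fold range of the members, 5369-fold, with 168, 746, 13.4, 1415 and 2206 CPM in Control, 440.4, 1739, 893, 384 and 160.0 CPM in CE, 743, 415, 219, 186 and 56.0 CPM in Sirt2-/- and 86.7, 92.2, 273, 221 and 0.411 CPM in Sirt2-/-/CE mice. Mup2 spread less, although its sequence is almost wholly shared. It had 302, 544, 137, 2442 and 1816 CPM in Control, 1047, 1445, 986, 1616 and 435 CPM in CE, 306, 774, 516, 345 and 229 CPM in Sirt2-/- and 392, 315, 796, 452 and 125 CPM in Sirt2-/-/CE mice.

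Mup10 ranged from 7.59 to 1898 CPM and Mup11 from 158 to 4696 CPM over the 20 mice, again with the lowest values in mice 20 and 3. The SD within groups on the log2 scale was 2.99 for Mup7, 2.60 for Mup1, 2.14 for Mup10, 1.45 for Mup21, 1.28 for Mup11, 1.26 for Mup20 and 1.12 for Mup2. The plot of levels by mouse shows this spread within each group and the overlap between the groups. Over the 20 mice the levels of the 36 pairs of members had Spearman correlations of 0.51 to 0.95 (median 0.83), and without mice 3 and 20 of 0.33 to 0.94 (median 0.77). These describe members that may share reads and that come from the same libraries. Mup3 and Mup21, whose counts rest mostly on sequence of their own, had 0.94, and Mup7 and Mup17 had 0.95, the highest of the pairs.

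**Figure D3:**
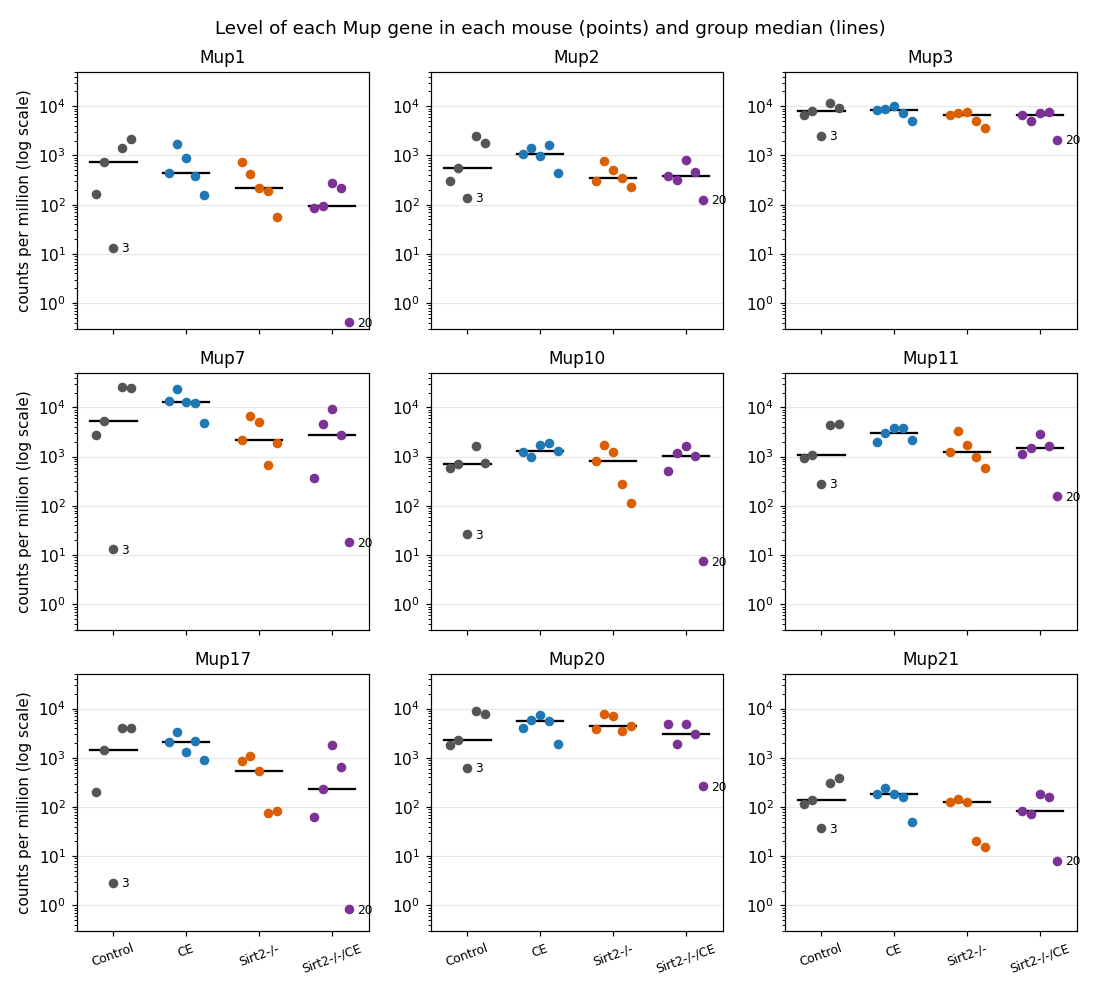
Levels of the 9 Mup genes in CPM on a log scale, with 1 panel per gene. Points are mice, lines are group medians, and mice 3 (Control) and 20 (Sirt2-/-/CE) are numbered. Mup3 spans a 5.63-fold range and Mup17 a 4860-fold range.

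Cold exposure of wild-type mice was compared through CE and Control. The fit was edgeR's quasi-likelihood test over all 15616 genes that passed the filter, with adjustment by the Benjamini-Hochberg method and an adjusted p under 0.05 as the threshold, and log2 fold changes are given with their SE. None of the 9 members passed, here or in the comparisons below and also not with DESeq2 or limma voom, against 0.0064% of all genes (1 gene), and 0 members had an unadjusted p under 0.05, against 10.7% of all genes. The median log2 fold change of the members was 0.08, and -0.01 over all genes tested. The groups overlapped for all 9 members, and did not for 3.04% of all genes. Estimates were positive for 7 members and negative for 2. The highest was 0.94 for Mup10 (SE 0.88, edgeR adjusted p = 0.777), which was above the Control mean in 5 of 5 CE mice, and the lowest was -0.33 for Mup1 (SE 1.05, edgeR adjusted p = 0.960). Mup3 differed by 0.05 (SE 0.35), Mup7 by 0.17 (SE 1.15), Mup20 by 0.22 (SE 0.63) and Mup11 by 0.37 (SE 0.65). An SE of 1.15 leaves room for a difference of several fold in either direction for Mup7, whereas that of Mup3 is narrower. Without mice 3 and 20 the estimates of Mup2, Mup3, Mup7, Mup17 and Mup20 were below 0.

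Loss of Sirt2 in unexposed mice was compared through Sirt2-/- and Control, which share the Control mice with the comparison above. None of the 9 members passed the edgeR test, against 0.89% of all genes (139 genes), and again 0 members had an unadjusted p under 0.05, against 14.9% of all genes. No member had groups that did not overlap, against 3.61% of all genes. The estimates were negative for 7 members and positive for Mup20 and Mup10, and their median was -1.19, while the median over all genes was 0.02. Mup17 had a log2 fold change of -1.91 (SE 1.29, edgeR adjusted p = 0.524) and Mup7 of -1.86 (SE 1.19, edgeR adjusted p = 0.498), with 0 of 5 Sirt2-/- mice above the Control mean for either. Mup2 had the lowest adjusted p of the members, 0.335 in edgeR, with a log2 fold change of -1.27 (SE 0.61). Mup1 had -1.49 (SE 1.07), Mup21 -1.19 (SE 0.72), Mup11 -0.54 (SE 0.66) and Mup3 -0.34 (SE 0.35). Mup20 had 0.30 (SE 0.63, edgeR adjusted p = 0.875), so a difference in its level was not shown, beside the shares of the Mup counts given above. With sample weights in limma voom the estimates of Mup7, Mup11 and Mup17 were above 0, the opposite direction. Without mice 3 and 20 the estimate of Mup10 was -0.16, that of Mup20 was 0.02 and the other 7 ran from -2.24 to -0.57. In that fit 6 of 9 members had an unadjusted p under 0.05, against 11.3% of all genes, and none passed the threshold after adjustment in edgeR. The 2 mice were left out for their low Mup levels. Leaving out mouse 3 raises the Control level of the members and narrows its spread. The count of 6 is therefore no test, and the share of all genes, which were not trimmed on their own values, is no like measure.

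Cold exposure of knockout mice was compared through Sirt2-/-/CE and Sirt2-/-. No member passed, and 0% of all genes did, while 0 members and 7.25% of all genes had an unadjusted p under 0.05 in the edgeR test. Groups that did not overlap were found for 0 members and 0.743% of all genes. The median log2 fold change was -0.06 for the members and 0.01 for all genes, with 4 positive and 5 negative estimates. The largest were -1.26 for Mup1 (SE 1.06, edgeR adjusted p = 0.867) and -0.81 for Mup20 (SE 0.63, edgeR adjusted p = 0.849), and 0 of 5 Sirt2-/-/CE mice were above the Sirt2-/- mean for both. The other 7 members differed by -0.10 to 0.23 on the log2 scale, with SEs of 0.35 for Mup3 to 1.25 for Mup17. When mice 3 and 20 were left out, the estimates of Mup2, Mup3 and Mup11 were 0.18, 0.13 and 0.20, which made 7 of the 9 positive.

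Loss of Sirt2 under cold exposure was compared through Sirt2-/-/CE and CE, and here all 9 estimates were negative. None passed the edgeR test, against 0.0128% of all genes (2 genes), and 2 of 9 members had an unadjusted p under 0.05, against 6.09% of all genes. The median log2 fold change was -1.01 for the members and 0.02 for all genes, of which 47.4% had a negative estimate. Mup1 had a log2 fold change of -2.42 (SE 1.10, edgeR adjusted p = 0.778) and Mup2 of -1.41 (SE 0.61, edgeR adjusted p = 0.744), and these are the 2 members with an unadjusted p under 0.05. Mup7 had -1.98 (SE 1.20), Mup17 -1.85 (SE 1.29), Mup11 -1.01 (SE 0.66), Mup20 -0.73 (SE 0.63) and Mup3 -0.48 (SE 0.35). For these 7 members 0 of 5 Sirt2-/-/CE mice were above the CE mean, and for Mup10 and Mup21, with -0.71 each (SE 0.88 and 0.71), 1 of 5 was. The groups overlapped for each of the 9 members, while they did not for 1.22% of all genes. Because the members vary together across mice, 9 estimates of 1 sign are not 9 separate observations. Markers of endothelial cells moved with this comparison, since Pecam1, Stab2, Clec4g and Kdr had positive estimates of 1.02 to 1.39, all 4 at an unadjusted p under 0.05 and none with an adjusted p under 0.05 in edgeR (the lowest was 0.458). Their summed level was 25.3 to 122 CPM in CE and 127 to 201 CPM in Sirt2-/-/CE mice. Their part in the result was not tested.

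**Figure D4:**
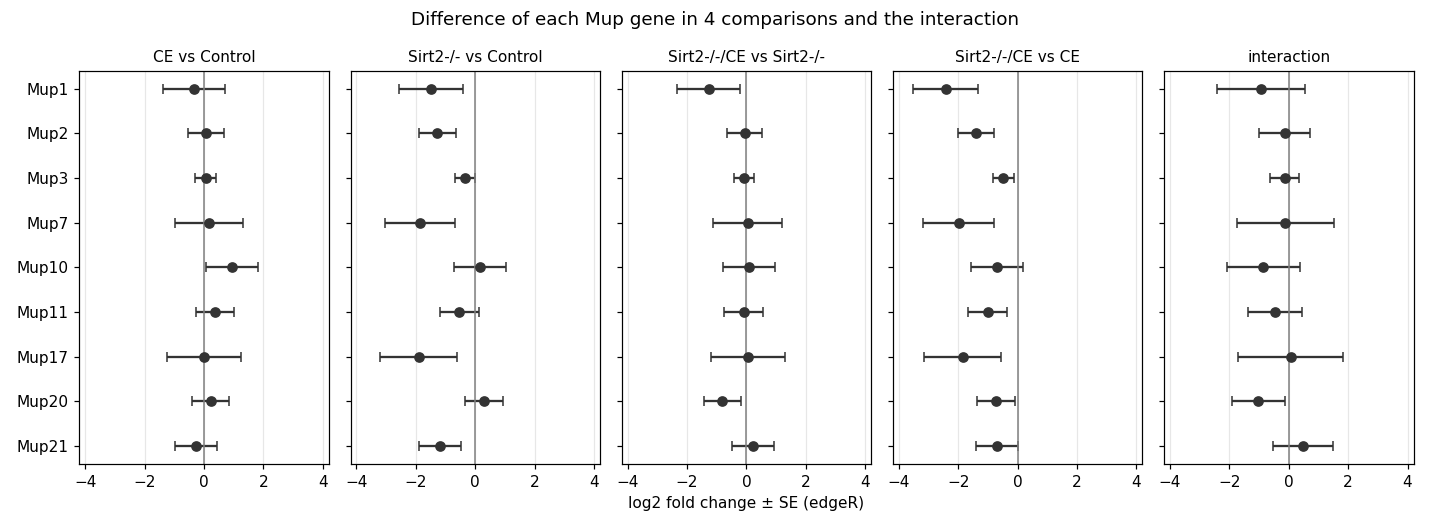
Log2 fold changes of the 9 Mup genes with their SE from the edgeR fit, in 1 panel for each of the 4 comparisons and the interaction. The estimates of Sirt2-/-/CE against CE lie between -2.42 and -0.48, and none of the 45 values passed the threshold.

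The interaction asked whether the cold exposure difference depended on genotype. No member passed, nor did any gene (0% of 15616, with 8.34% at an unadjusted p under 0.05 in the edgeR test and 0 of the 9 members). The estimates ran from -1.03 for Mup20 (SE 0.89, edgeR adjusted p = 0.811) to 0.48 for Mup21 (SE 1.00), with a median of -0.14 and SEs of up to 1.77. With mice 3 and 20 left out, the estimates of Mup2, Mup3, Mup7 and Mup11 were positive, at 0.38, 0.30, 0.51 and 0.12, and the median was 0.30. The 4 comparisons share groups with one another, so that their values are not independent.

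The 12 other Mup genes differed widely in level. The median FPKM over the 20 mice was 1918 for Mup18, 1118 for Mup14, 1062 for Mup12, 789 for Mup19, 752 for Mup13, 637 for Mup16, 632 for Mup15, 127 for Mup9, 104 for Mup8 and 11.03 for Mup6. Mup4 was at 0 counts in all 20 mice, and Mup5 was at 0 in 11 mice and reached 7381 counts in another. Both are best known from glands other than the liver. Of the 20 Mup genes tested, 18 had negative estimates in Sirt2-/- against Control and 19 in Sirt2-/-/CE against CE, and none passed the edgeR test in any comparison, with 0 of 20 at an unadjusted p under 0.05 in the former, against 14.9% of all genes, and 4 of 20 in the latter, against 6.09%. In Sirt2-/-/CE against CE, Mup9 and Mup15 were the 2 of 20 Mup genes whose groups did not overlap, against 1.22% of all genes, narrowly so for Mup9, with 116.97 CPM in the lowest CE mouse and 116.45 CPM in the highest Sirt2-/-/CE mouse. For Mup15 these values were 713 and 636 CPM.

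Mup levels went together with other male-biased liver genes. Of 14 such genes tested, 9 had a Spearman correlation above 0.5 with the summed level of the 9 members over the 20 mice, against 2.54% of 15581 genes tested, and the median over the list was 0.58. Without mice 3 and 20 it was 5 of 14, against 486 of 15581 genes, and the median was 0.43. C6, a complement component, had 0.92, Cyp7b1, an oxysterol hydroxylase, had 0.90, and Selenbp2, a selenium-binding protein, had 0.85, while Elovl3, a fatty acid elongase, had 0.08. Of 12 female-biased genes tested, 4 had a correlation below -0.5, against 2.18% of all genes. These included Cyp2b9 at -0.84, Acot3 at -0.71 and A1bg at -0.64. The median over the female-biased list was -0.39. Without mice 3 and 20 that median was -0.17, and 4 of 12 were below -0.5, against 452 of 15581 genes. The correlations come from libraries of the same mice and are given without a test.

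Mice 3 and 20 carried this pattern furthest. The 15 male-biased genes summed to 1506 CPM in mouse 3 and 1622 CPM in mouse 20, against 3799 to 8303 CPM in the other 18 mice. The 18 female-biased genes summed to 619 CPM in mouse 3 and 2015 CPM in mouse 20, against 41.4 to 247 CPM in the others. Hsd3b5, a male-biased steroid dehydrogenase, had 13.3 and 1.33 CPM in mice 3 and 20, but Sirt2-/- mouse 15 and Sirt2-/-/CE mouse 16 were as low as mouse 3, with 11.6 and 13.03 CPM, and the highest mouse had 272 CPM. The Y-linked genes were expressed in both mice, summing with Xist to 139.7 and 91.1 CPM, within the range of 71.4 to 142 CPM of the others. The 24 regulators summed to 2812 and 2266 CPM, within the range of the other mice (2015 to 3056 CPM), but the sum rests on the most abundant of them. Mouse 3 had the highest level of the 20 mice for 5 of the 24, among them Prlr with 156 CPM (at most 142 CPM in the others), and the lowest for 3, among them the liver transcription factors Foxa1 and Foxa2. Mouse 20 had the highest level for 1 and the lowest for 2, among them the growth hormone target Igf1, with 338 CPM against 389 CPM or more in the others. Markers of pancreatic acinar cells and of adipocytes were at most 19.4 and 0.172 CPM in any mouse.

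**Figure D5:**
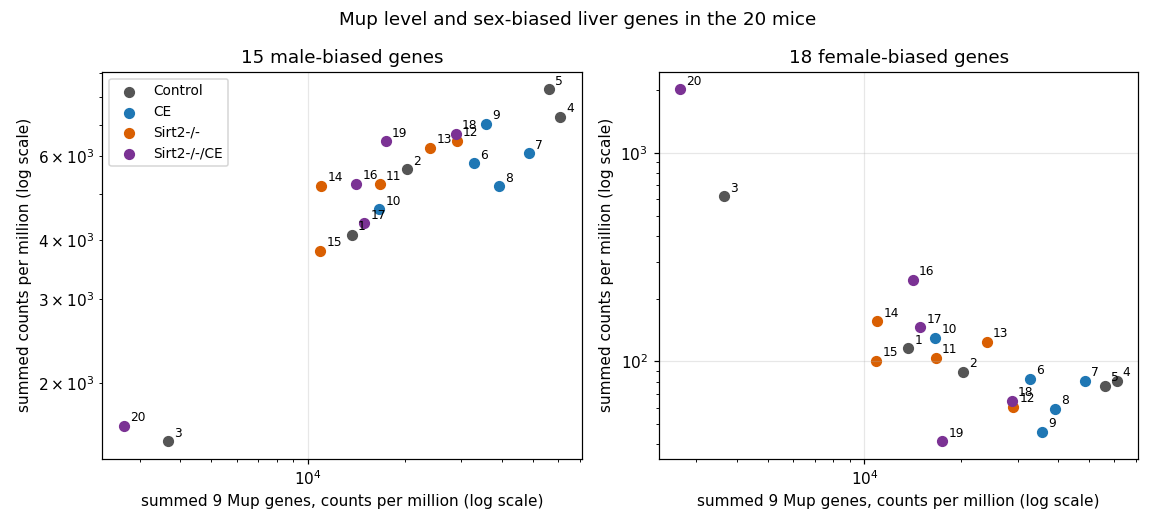
Summed CPM of the 9 Mup genes on the x axis against summed CPM of 15 male-biased (left) and 18 female-biased (right) liver genes, both axes on a log scale, for 20 numbered mice. Mice 3 and 20 lie at 1506 and 1622 CPM of male-biased genes and at 619 and 2015 CPM of female-biased genes, outside the range of the other 18 mice.

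By the profile of single genes, the summed members were set beside 10557 candidates without a Mup symbol over 20 mice. Most like them were Serpina1e, a member of the alpha-1 antitrypsin family, with a Spearman correlation of 0.92, C6 with 0.92 and Cyp7b1 with 0.90. With these stood the unnamed genes Mus_musculus_newGene_1207 with 0.91 and Mus_musculus_newGene_1208 with 0.87. The Pearson correlations of all these genes were 0.85 to 0.94, and within groups they were 0.84 to 0.95. Without mice 3 and 20, the 2 farthest from the median, they were 0.83 to 0.89. For Mup17, the member with the largest SD within groups, the leading genes included Serpina1e (0.94) and the same 2 unnamed genes (0.94 and 0.91). The others were Cyp2f2, a cytochrome P450 (0.89), and Selenbp2 (0.89). Where the 2 unnamed genes lie, and whether they belong to the family or share its reads, was not tested.

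The regulators of the family gave no call. Of 24 genes of growth hormone signalling and of hepatocyte transcription, 0 passed the edgeR test in any comparison. In CE against Control, where 3 of them had an unadjusted p under 0.05, against 10.7% of all genes, Stat5a had a log2 fold change of 0.66 (SE 0.23, edgeR adjusted p = 0.286) and Cux2, a repressor of male-biased genes, of -2.53 (SE 1.12, edgeR adjusted p = 0.429). The value of Cux2 rested on Control mouse 3, without which it was -0.35. Cux2 had 8.34 CPM in mouse 3, 5.95 and 3.54 CPM in Sirt2-/- mice 14 and 15, and 1.60 CPM in mouse 20, and at most 0.941 CPM in the other 16 mice. By the share of counts held by the members, these 4 mice were the 4 lowest of the 20, while over all 20 mice its Spearman correlation with the summed members was -0.31, and -0.07 without mice 3 and 20. This pattern of Cux2 was picked out after its values were seen. Ghr had 408 to 648 CPM in wild-type and 246 to 612 CPM in knockout mice. Prlr, the prolactin receptor, was the regulator with the strongest correlation with the members, at -0.69, and none of the 24 was above 0.5.

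Sex-biased and other secreted proteins were read in the same fit. No gene of the 14 male-biased or 12 female-biased genes tested passed the edgeR test in any comparison, and 0 to 1 of the 14 male-biased genes had an unadjusted p under 0.05, against 6.09% to 14.9% of all genes. For the female-biased genes that number was highest in CE against Control, 5 of 12 against 10.7% of all genes, and lowest in Sirt2-/- against Control, 2 of 12 against 14.9%. In Sirt2-/-/CE against CE, 10 of 12 female-biased estimates were positive, with a median log2 fold change of 1.54 and 4 at an unadjusted p under 0.05, against 6.09% of all genes, and 12 of 14 male-biased estimates were negative, with a median of -0.11. Without mice 3 and 20 the female-biased median there was 0.18 with 9 of 12 positive, and 8 of 15 male-biased estimates were negative. In that fit 0 of 12 female-biased and 3 of 15 male-biased genes had an unadjusted p under 0.05 there, against 5.06% of all genes. In CE against Control 2 of 12 female-biased genes did, against 7.01% of all genes, and in Sirt2-/- against Control 4 of 15 male-biased genes did, against 11.3%. None of these passed after adjustment in edgeR. Both mice lay at the extremes of these lists, so counts without them are no separate test. In CE against Control, Elovl3 had 2.41 (SE 0.98), C6 0.61 (SE 0.46) and Cyp4a12a, a fatty acid hydroxylase, 0.38 (SE 0.58) on the log2 scale, with edgeR adjusted p of 0.379, 0.694 and 0.887. Without CE mouse 9 the value of Elovl3 was 1.02 and that of Cyp4a12a 0.13, and without Control mouse 3 those of C6 and Cyp4a12a were 0.40 and 0.13. Without Control mouse 2 that of Cyp4a12a was 0.62. Among female-biased genes Acot3, an acyl-CoA thioesterase, had -2.61 (SE 0.90), Cyp17a1, a steroid hydroxylase, 1.48 (SE 0.53) and Ntrk2, a neurotrophin receptor, -2.61 (SE 0.96), with edgeR adjusted p of 0.284, 0.308 and 0.322. Without Control mouse 3 the value of Ntrk2 was -1.22. Of the 10 other lipocalins tested, 0 passed the edgeR test in any comparison (with DESeq2, Orm2 did in Sirt2-/-/CE against CE), and Sirt2-/-/CE against CE had the most genes with an unadjusted p under 0.05, 5 of 10, against 6.09% of all genes. There the orosomucoids Orm2, Orm1 and Orm3, acute-phase carriers of the lipocalin family, had log2 fold changes of -3.14 (SE 0.74), -0.81 (SE 0.24) and -2.45 (SE 0.78), with edgeR adjusted p of 0.426, 0.472 and 0.510. Without CE mouse 10 the value of Orm2 was -2.01. Of 26 abundant secreted proteins, 0 passed the edgeR test in any comparison, and 4 had an unadjusted p under 0.05 in CE against Control, against 10.7% of all genes. Of these proteins Serpina3k, Hpx, the carrier of heme, and Hp, the carrier of haemoglobin, had 0.60 (SE 0.23), 0.75 (SE 0.29) and 1.04 (SE 0.43) in CE against Control, with edgeR adjusted p of 0.355, 0.358 and 0.383. Without CE mouse 8 the value of Hp was 0.51.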

How the data were processed

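Libraries from the livers of 20 mice were read on an Illumina NovaSeq after oligo(dT) selection and random-hexamer priming. The authors deposited 1 table of read counts per gene without normalization, together with FPKM values that the authors scaled to gene length and sequencing depth. The build was mm10 per the submitters' processing notes, and the aligner, the counting tool, strand handling and the treatment of reads that match several genes were not given in the sources used here. From the table, 9 lines without a gene were dropped, which left 45306 genes. Groups followed the labels. The members and gene lists were chosen with earlier results of these data known, and no value supports them independently.

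Counts were tested with edgeR 4.0.16 in R 4.3.3 (quasi-likelihood F test, two-sided, TMM scaling, low genes removed by filterByExpr within groups, set to 10 counts and 15 in total). All 20 mice entered 1 fit with group as the only term, 15616 genes were tested, and p-values were adjusted over all of them by the Benjamini-Hochberg method at 0.05. The SE is the absolute log2 fold change divided by the square root of F. The study's methods name no model for the sequencing data. DESeq2 1.42.0 and limma 3.58.1 gave alternatives, and the code was tested on simulated data. The other alternatives were further scalings and filters, fits of only the groups compared and leaving out mice, with all effects given in the closing section. Sequences were compared with Biopython 1.88 and figures drawn with matplotlib 3.10.9.

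All 9 members were named, with the other Mup genes, Sirt2 and, of each list, genes that passed or otherwise the 3 with the lowest p in the comparison with most genes at an unadjusted p under 0.05. Where comparisons tied, as for the male-biased and secreted lists, the first was taken. Some genes that this rule or the lists include are not reported here. For likeness, the 5 genes with the highest Spearman correlation with the summed members, and with Mup17, were named, out of genes averaging 1 FPKM or more. Totals ranged from 35499796 to 53917339 counts per mouse.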

Additional observations from a re-analysis of the deposited data

How the results depend on the processing

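No member passed the threshold under any of the alternatives tried, which were DESeq2, DESeq2 size factors, upper-quartile scaling, library size only, TMM factors without the Mup genes, a stricter and no filter on low counts, limma voom with sample weights, separate fits for each pair of groups, leaving out each mouse, and leaving out mice 3 and 20 together, chosen after seeing the data. The lowest adjusted p of a member over the 981 fitted values was 0.202, for Mup7 in Sirt2-/- against Control. Signs of the members were less steady, and the cause was not tested. With upper-quartile scaling Mup17 had -0.025 in CE against Control. With limma voom the opposite signs were CE against Control 0.57 for Mup1 and 0.028 for Mup21, and Sirt2-/- against Control 0.22 for Mup7, 0.53 for Mup11 and 0.36 for Mup17, and Sirt2-/-/CE against Sirt2-/- -0.53 for Mup7, -0.35 for Mup10 and -0.78 for Mup17, and the interaction -2.74 for Mup17. Without mice 3 and 20 they were CE against Control -0.21 for Mup2, -0.17 for Mup3, -0.15 for Mup7, -0.31 for Mup17 and -0.055 for Mup20, and Sirt2-/- against Control -0.16 for Mup10, and Sirt2-/-/CE against Sirt2-/- 0.18 for Mup2, 0.13 for Mup3 and 0.20 for Mup11, and the interaction 0.38 for Mup2, 0.30 for Mup3, 0.51 for Mup7 and 0.12 for Mup11. In CE against Control, leaving out each mouse in turn moved the log2 fold change over -0.21 to 0.66 for Mup2, -0.15 to 0.68 for Mup7, -0.31 to 0.47 for Mup17, -0.17 to 0.27 for Mup3, -0.055 to 0.68 for Mup20, -0.96 to 0.31 for Mup1 and -0.52 to 0.14 for Mup21. In Sirt2-/- against Control, leaving out each mouse in turn moved the log2 fold change over -0.29 to 0.65 for Mup10. In Sirt2-/-/CE against Sirt2-/-, leaving out each mouse in turn moved the log2 fold change over -0.78 to 0.49 for Mup7, -0.43 to 0.25 for Mup2, -0.51 to 0.38 for Mup11, -0.23 to 0.13 for Mup3, -0.28 to 0.53 for Mup10, -1.16 to 0.51 for Mup17 and -0.094 to 0.53 for Mup21. In the interaction, leaving out each mouse in turn moved the log2 fold change over -0.72 to 0.18 for Mup2, -0.94 to 0.32 for Mup7, -0.34 to 0.091 for Mup3, -1.17 to 0.50 for Mup17 and -0.90 to 0.0082 for Mup11. The difference of the family share moved by less than the SD within groups under every alternative. That SD is larger than most of the differences, so this bound does not fix their size or sign. Group medians of the share were 1.97% in Control, 3.41% in CE, 1.74% in Sirt2-/- and 1.62% in Sirt2-/-/CE. By medians CE lay further above Control than by means, and Sirt2-/- lay closer to Control. Leaving out each mouse gave -0.350 to 0.986 points in CE against Control, -1.69 to -0.353 in Sirt2-/- against Control, -0.698 to 0.0054 in Sirt2-/-/CE against Sirt2-/- and -2.10 to -1.33 in Sirt2-/-/CE against CE.

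Over all genes, the count of calls depended on the test. For CE against Control, Sirt2-/- against Control, Sirt2-/-/CE against Sirt2-/-, Sirt2-/-/CE against CE and the interaction, edgeR called 1, 139, 0, 2 and 0 genes, and DESeq2 188, 607, 7, 31 and 41. In Sirt2-/- against Control the count was 419 with library size only, 209 with at least 10 counts in every library, 35 with no filter, 29 from the 2 groups alone, 29 without mice 3 and 20, and 906 with limma voom, which called 540 in CE against Control. CE against Control and Sirt2-/-/CE against CE had 0 calls each from the 2 groups alone and without mice 3 and 20, and the latter had 1 with library size only. Leaving out each mouse gave 0 to 68, 5 to 375, 0 to 0, 1 to 6 and 0 to 2 calls. The highest counts were 68 without Control mouse 4, 375 without Sirt2-/- mouse 13 and 6 without CE mouse 6, and the lowest in Sirt2-/- against Control, 5, came without Control mouse 2 and without Sirt2-/- mouse 14. Of the genes named from the lists, Orm2 passed in DESeq2 (adjusted p = 0.0160), and Cyp17a1 and Hpx in limma voom (adjusted p = 0.0451 and 0.0420). No paired analysis was possible because the mice are numbered 1 to 20 and the groups share no number. With 5 mice a group and an SD within groups of up to 3.22 on the log2 scale, differences of several fold were not detectable for Mup17 and Mup7, and reads shared among near-identical members limit single values.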
